A study of Rattus norvegicus with 14 samples.

Results

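The genes described here encode 5 cytosolic enzymes of the pentose phosphate pathway and of NADPH supply: Pgd, Tkt, Taldo1, Me1 and Idh1. They were chosen by symbol in the probe annotation, and are 5 of 14218 genes named there by at least 1 probe set of their own. Between them they had 7 probe sets, of which 6 reached a signal of 100 on at least 2 arrays and were tested among 17515 in all. The second probe set of Idh1 lay between 9.69 and 42.4 on every array and was not tested. A further 4 probe sets list Pgd together with other genes and were not used.

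All groups consisted of IEC-6 cells, a non-transformed line from rat small intestinal crypts, kept as monolayers for 72 h. The groups were 100 µM indomethacin, which blocks both cyclooxygenases (2 arrays), 100 µM NS-398, which prefers cyclooxygenase-2 (4 arrays), 1 µM SC-560, which prefers cyclooxygenase-1 (4 arrays), and the vehicle DMSO (4 arrays). The submitters chose indomethacin and NS-398 because they slow the migration of such cells, and SC-560 because it does not. Material was pooled before hybridisation, per the design text, so p-values reflect array-to-array spread only, and that spread may be technical. Since cultures are bulk samples, fewer cells with a transcript and less transcript per cell cannot be told apart.

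The pentose phosphate pathway branches off glycolysis at glucose 6-phosphate. Its oxidative arm, in which Pgd acts, yields NADPH and a pentose, and its non-oxidative arm, in which Tkt and Taldo1 act, passes carbon between pentoses and glycolytic intermediates. Me1 and Idh1 make NADPH in the cytosol from malate and isocitrate. NADPH pays for fatty acid and sterol synthesis and for the reduction of glutathione, thioredoxin and quinones, and in mouse and human cells NRF2, a regulator of antioxidant genes, is known to drive several of these enzymes.

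The arrays fall into 2 label sets, 6 whose replicate label has no suffix and 8 with the suffix b, and the sources used here do not say what the suffix means. Both indomethacin arrays are of set b. Per array, 49.7% to 52.4% of the probe sets had a signal of 100 or more. The first principal component, with 69.2% of the variance, separated the label sets, and the 3' to 5' signal ratio of the beta-actin control was 1.218 to 1.338 in set b and 1.498 to 1.639 without the suffix. Cdx2, a defining factor of intestinal epithelium, had signals of 3072 to 5314 in set b and of 55.0 to 124 without the suffix. Krt8 and Cdh1, of epithelia, were at or above 2670 and 2637 on every array, but Epcam, Krt18, Cldn3, Cldn4, Cldn7, Muc2 and Lyz2 did not reach 100 on any, and 4 of 17 epithelial markers reached it on all 14. The mesenchymal markers Vim, Col1a1, Col1a2 and Col3a1 had lowest signals of 21670, 10473, 6781 and 16746 (8 of 14 such markers at 100 on all arrays), and of 7 leukocyte markers Cd14 alone reached 100 on all. The leukocyte markers summed to 4022 and 4286 under indomethacin, 3946 and 4102 under NS-398, 3147 and 3258 under SC-560, and 3374 and 3634 under DMSO in set b. Without the suffix the leukocyte sums were 4127 and 4207 under NS-398, 3681 and 3841 under SC-560, and 3760 and 3933 under DMSO. They were thus higher under NS-398 than under DMSO in both sets without overlap, as they were under indomethacin in set b. Most of each sum was Cd14 alone, at 2871 to 4088 over the 14 arrays. Summed over the 17 epithelial markers, signals within set b were 24826 and 25129 under indomethacin, 21472 and 22760 under NS-398, 23145 and 23610 under SC-560, and 21040 and 21571 under DMSO. On the other arrays the sums were 23117 and 23329 under NS-398, 23801 and 24546 under SC-560, and 23736 and 24066 under DMSO. The 14 mesenchymal markers summed to 90998 and 94513 under indomethacin, 92030 and 96928 under NS-398, 103692 and 106114 under SC-560, and 91232 and 94541 under DMSO in set b. On arrays without the suffix these sums came to 68543 and 72700 under NS-398, 75925 and 78465 under SC-560, and 72940 and 75105 under DMSO. The part of these marker differences in the results below was not tested. Drug effects are therefore given within a label set, or as the mean of the effects within both.

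The promoters below are shown for Tkt and Taldo1, which were called for NS-398 in both label sets, and for Me1, whose change under NS-398 had opposite signs in the sets. They are RefSeq sequences of the rat assembly GRCr8, from 250 bases before to 50 bases after the annotated start, 5′ to 3′ on the gene's strand. That of Tkt is chr16:5729982-5730281 on the plus strand, that of Taldo1 chr1:205922946-205923245 on the plus strand, and that of Me1 chr8:96540195-96540494 on the minus strand. Capitals mark the core of the antioxidant response element, the site NRF2 binds (TGACNNNGC, both strands searched).
Tkt: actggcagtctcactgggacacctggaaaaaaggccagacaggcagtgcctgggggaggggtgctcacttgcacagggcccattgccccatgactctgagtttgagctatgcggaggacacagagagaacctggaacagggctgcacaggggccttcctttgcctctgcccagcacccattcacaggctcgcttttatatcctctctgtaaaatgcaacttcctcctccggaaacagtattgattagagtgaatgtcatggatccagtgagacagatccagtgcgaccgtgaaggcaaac
Taldo1: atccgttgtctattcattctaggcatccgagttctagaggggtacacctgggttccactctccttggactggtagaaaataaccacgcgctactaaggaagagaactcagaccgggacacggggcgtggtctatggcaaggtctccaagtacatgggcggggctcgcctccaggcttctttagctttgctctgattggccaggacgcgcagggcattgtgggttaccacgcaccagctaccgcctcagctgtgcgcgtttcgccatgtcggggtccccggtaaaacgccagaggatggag
Me1: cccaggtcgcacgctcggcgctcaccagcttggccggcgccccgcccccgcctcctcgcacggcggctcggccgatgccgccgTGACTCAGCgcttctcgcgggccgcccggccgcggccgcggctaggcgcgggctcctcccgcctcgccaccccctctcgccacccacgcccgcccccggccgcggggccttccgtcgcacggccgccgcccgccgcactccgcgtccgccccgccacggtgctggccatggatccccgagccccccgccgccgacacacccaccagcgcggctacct
All 5 genes matched the promoter table. The core was found in the windows of Me1, from base -167 to -159, and of Idh1, from -83 to -75, and its letters are not in the windows of Tkt, Taldo1 and Pgd. Of 33469 rat promoters of this length, 12.1% hold it. The GC box core GGGCGG was found 5 times in the window of Me1, 2 times in that of Idh1, 1 time each in those of Pgd and Taldo1 and not in that of Tkt, against 33.1% of promoters with at least 1 match. G and C made up 81.7% of the window of Me1, 65.7% of Idh1, 60% of Pgd, 57.3% of Taldo1 and 54.3% of Tkt. The median over all promoters was 51.7%. Whether the GC box counts go beyond this composition was not tested. Neither the E-box core CACGTG (6.42% of promoters) nor the sterol regulatory element core TCACNCCAC (1.12%), the site of SREBP, was found in any of the 5 windows. No match shares a base with a match of another motif.

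Tkt and Taldo1 of the non-oxidative arm rose under NS-398 in both label sets. Tkt, transketolase, passes ketol units between sugar phosphates. Without the suffix its signals were 5781 and 6055 under NS-398, against 3793 and 3659 under DMSO. In set b they were 6554 and 6917 under NS-398, against 4692 and 4903 under DMSO. The groups did not overlap in either set, and the lowest NS-398 array of all, one without the suffix, lay above the highest DMSO array of set b. The log2 change of (signal + 50) was 0.66 ± 0.06 without the suffix (SE, limma adjusted p 2.51e-06) and 0.48 ± 0.06 in set b (limma adjusted p 3.17e-05). Averaged over both sets it was 0.57 ± 0.04, a 1.49-fold rise (limma adjusted p 1.14e-07).

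Taldo1, transaldolase, which passes dihydroxyacetone units, also rose in both sets. Its signals were 4186 and 3974 under NS-398, against 3226 and 3299 under DMSO, without the suffix. With the suffix they were 3903 and 4037 under NS-398, against 3072 and 3148 under DMSO. Every NS-398 array lay above every DMSO array, whichever the set. The log2 change was 0.32 ± 0.06 on arrays without the suffix and 0.35 ± 0.06 on those of set b (limma adjusted p 0.00238 and 0.000936), and 0.33 ± 0.04 as their mean, a 1.26-fold rise (limma adjusted p 4.71e-05). The calls of Tkt and Taldo1 held under each of the 14 alternatives run in each set and each of the 20 run on the mean.

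Pgd, 6-phosphogluconate dehydrogenase, is an NADPH-making step of the oxidative arm. Its signals were 2527 and 2524 under NS-398, against 2250 and 2087 under DMSO, without the suffix. In set b they were 3517 and 3586 under NS-398, against 3212 and 3439 under DMSO. NS-398 arrays were above DMSO arrays in each set, narrowly in set b. The mean log2 change passed the test, at 0.16 ± 0.05 (limma adjusted p 0.0306), as did that without the suffix, at 0.22 ± 0.07 (limma adjusted p 0.047). In set b it was 0.09 ± 0.07, with a 95% interval from -0.05 to 0.24 (limma adjusted p 0.401). The call without the suffix was lost in 9 of 14 alternatives. The call on the mean was lost in 9 of 20 alternatives, among them leaving out DMSO array 2 (limma adjusted p 0.12), DMSO array 1b (0.122), and NS-398 arrays 1 (0.0752), 2 (0.0766), 1b (0.0533) or 2b (0.0794).

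Me1 and Idh1, the NADPH sources outside the pathway, were not called over both sets. Me1, cytosolic malic enzyme, had signals of 612 and 579 under NS-398, against 759 and 799 under DMSO, without the suffix. In set b the values were 422 and 407 under NS-398, against 389 and 386 under DMSO. NS-398 arrays thus lay below DMSO without the suffix and slightly above it in set b. The log2 change was -0.36 ± 0.11 without the suffix (limma adjusted p 0.0387) and 0.09 ± 0.11 in set b (limma adjusted p 0.659). The fall lost its call whenever 1 of the 4 arrays was left out: the adjusted p was 0.0973 and 0.199 without NS-398 arrays 1 and 2, and 0.106 and 0.193 without DMSO arrays 1 and 2. It also missed with labels as a replicate block (adjusted p 0.0575). The second Me1 probe set had 507 and 580 under NS-398, against 642 and 767 under DMSO, without the suffix, and 385 and 434 under NS-398, against 379 and 316 under DMSO, in set b. Its changes of -0.34 ± 0.12 and 0.21 ± 0.12 had the same signs as those of the first, and neither passed (limma adjusted p 0.0804 and 0.288). Over the 14 arrays the log2 values of both probe sets correlated with r = 0.912, and these arrays include both label sets, between which both probe sets differ.

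Idh1, cytosolic isocitrate dehydrogenase, had signals of 3167 and 3423 under NS-398, against 3470 and 3988 under DMSO, without the suffix. In set b these were 4052 and 3673 under NS-398, against 4130 and 4214 under DMSO. The NS-398 arrays were the lower ones in each set, with nearest arrays of 3423 under NS-398 and 3470 under DMSO without the suffix, and of 4052 and 4130 in set b. The mean log2 change was -0.14 ± 0.06, with a 95% interval from -0.26 to -0.03, and did not pass (limma adjusted p 0.0812). Without DMSO array 1 it was -0.19 and did (adjusted p 0.033).

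In all, 3 of the 5 genes were called for NS-398 over both sets, all higher, where 19.5% of all tested probe sets were called, 10% higher and 9.5% lower. Without the suffix 3 were called higher and 1 lower, against 6.13% of probe sets called higher, 5.81% lower and 11.9% in either direction. Of the 4, Pgd and Me1 lost their calls with labels as a replicate block (2 called) and without any 1 of the arrays (2 called). In set b 2 were called, both higher, against 7.71% of probe sets called higher, 6.99% lower and 14.7% in all. NS-398 and DMSO arrays did not overlap for any of the 5 genes within a set, as held for 56.4% of all probe sets on arrays without the suffix and for 55.6% on those of set b. The direction was also shared by both sets for Pgd, Tkt, Taldo1 and Idh1, which held for 21.9% of probe sets. Me1 was the gene with opposite directions in the sets, as 11% of probe sets were. The median log2 change of the 5 genes was 0.16 over both sets, against -0.003 over the 9840 genes tested.

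**Figure D1:**
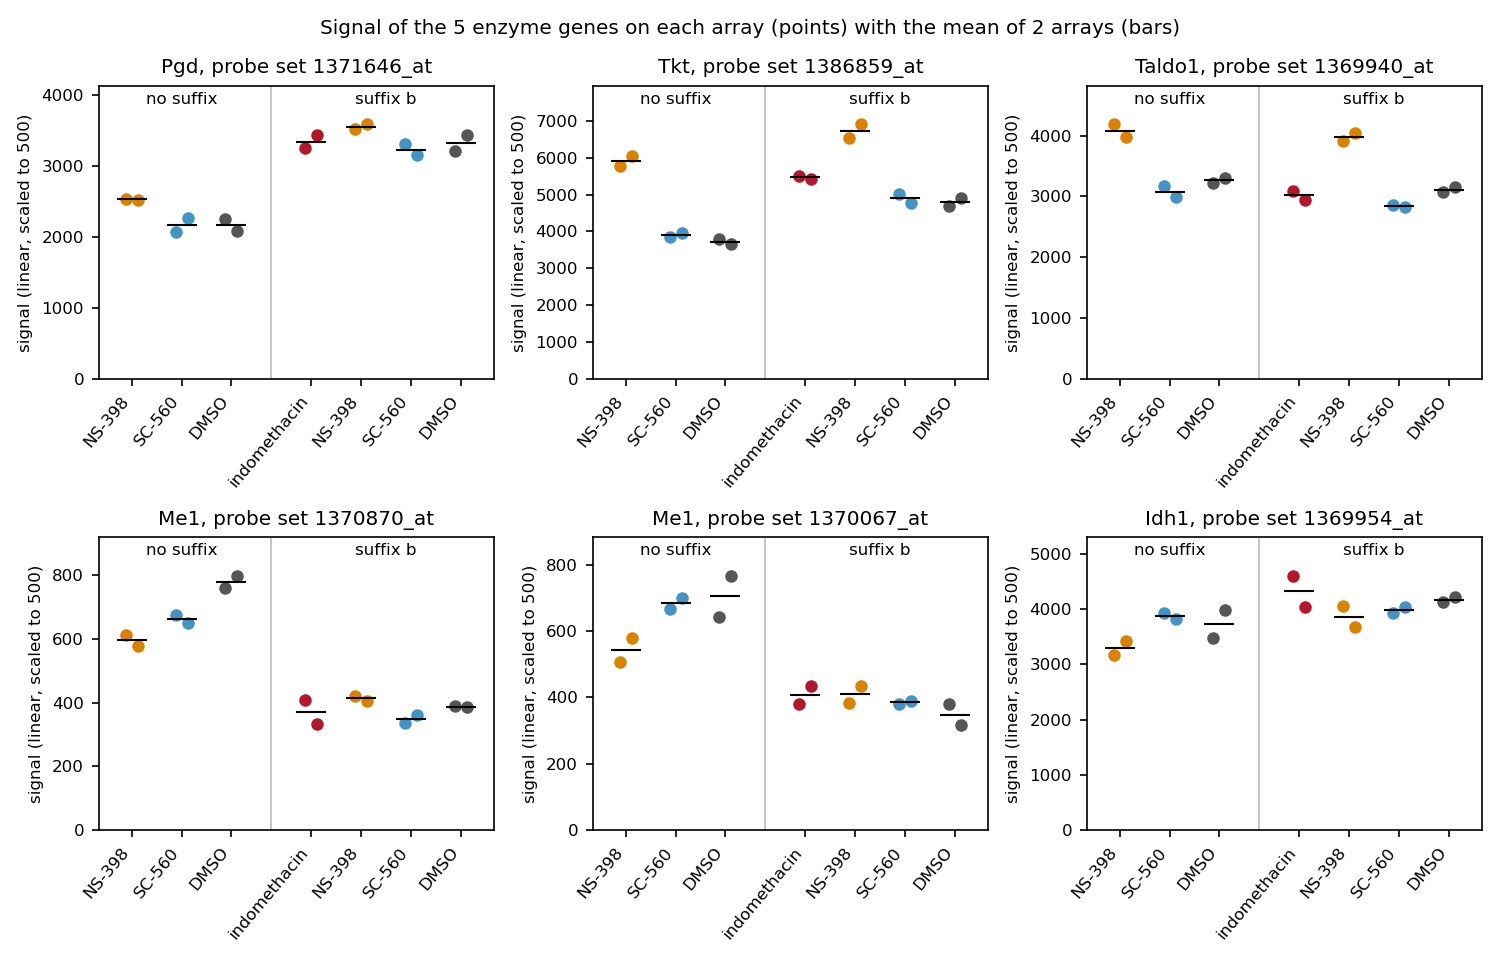
Signal (linear, scaled to a target of 500) of each tested probe set on each array, with NS-398, SC-560 and DMSO arrays without the suffix to the left of the line and indomethacin, NS-398, SC-560 and DMSO arrays with the suffix b to its right. Points are arrays and bars the mean of 2; Tkt and Taldo1 stand higher under NS-398 on both sides, and the brighter Me1 probe set is at 333 to 422 in set b and at 579 to 799 without the suffix.

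Whether the effect of NS-398 differed between the label sets was tested directly, as the change in set b minus that without the suffix. None of the 5 genes passed in limma, against 6.09% of probe sets called (3.23% higher and 2.86% lower) and 3705 probe sets at an unadjusted p under 0.05, and 2 of the 5, Tkt and Me1, had an unadjusted p under 0.05. For Me1 the difference was 0.45 ± 0.15 (unadjusted p 0.00948, limma adjusted p 0.0949), and 0.56 ± 0.17 for its second probe set (limma adjusted p 0.0691). For Tkt it was -0.18 ± 0.08 (limma adjusted p 0.214). Those of Pgd (-0.12 ± 0.10), Taldo1 (0.03 ± 0.08) and Idh1 (0.06 ± 0.11) had intervals that included 0. For Taldo1 the 95% interval ran from -0.15 to 0.21. In simulated arrays of this design, with 200 of 17515 probe sets changed, 15% of differences of 0.5 on the log2 scale between the sets were recovered, and 79.5% of differences of 1.

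The levels under DMSO also differed between the label sets. Me1 averaged 387 ± 1.79 in DMSO arrays of set b and 779 ± 28.3 in those without the suffix (SD, n = 2 each), a ratio of 0.497, and its second probe set had a ratio of 0.494. Pgd was higher in set b, at 3325 ± 160 in set b and 2168 ± 115 without the suffix, a ratio of 1.53. The ratio was 1.29 for Tkt, 1.12 for Idh1 and 0.953 for Taldo1. Both Me1 probe sets and Pgd thus differed more between the label sets than between any drug and DMSO within a set. Label set, culture and labelling cannot be told apart here.

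Indomethacin, at the same dose as NS-398, called none of the 5 genes in limma, where 7.1% of probe sets were called (3.43% higher and 3.67% lower) and 3760 had an unadjusted p under 0.05. At an unadjusted p under 0.05, Tkt alone passed. Tkt had signals of 5511 and 5439 under indomethacin, against 4692 and 4903 under DMSO of set b. The indomethacin arrays were the higher ones without overlap, and the log2 change was 0.19 ± 0.06 (95% interval 0.07 to 0.31, limma adjusted p 0.0516). It passed in 2 of 16 alternatives, with arrays centred on their median (adjusted p 0.0451) and with the stricter filter (0.0412).

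The other 4 genes did not pass at either threshold. Taldo1 had 3082 and 2945 under indomethacin, against 3072 and 3148 under DMSO, and a log2 change of -0.04 ± 0.06 (95% interval -0.17 to 0.08). Pgd had 3247 and 3428 under indomethacin, against 3212 and 3439 under DMSO (0.01 ± 0.07, interval -0.14 to 0.15). For Idh1 the signals were 4604 and 4035 under indomethacin, against 4130 and 4214 under DMSO (0.05 ± 0.08, interval -0.12 to 0.21). In each of these genes the arrays of both groups overlapped. Me1 overlapped too, with 408 and 333 under indomethacin, against 389 and 386 under DMSO (-0.06 ± 0.11, interval -0.29 to 0.16), and its second probe set, at 379 and 435 under indomethacin, against 379 and 316 under DMSO, had the opposite sign (0.20 ± 0.12, limma adjusted p 0.373). Without overlap of the groups 1 of the 5 genes stood apart, Tkt, as did 53.1% of all probe sets.

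Indomethacin and NS-398 are the pair of drugs at a matched dose and time within 1 label set, so they were compared directly in set b. Tkt was lower under indomethacin than under NS-398 by a log2 difference of -0.30 ± 0.06 (limma adjusted p 0.00304), and Taldo1 by -0.39 ± 0.06 (limma adjusted p 0.000533). For both genes all indomethacin arrays lay below all NS-398 arrays of the set. These 2 calls, both lower, compare with 5.87% of probe sets called lower, 4.11% higher and 9.99% in either direction. Both calls held in 15 of 16 alternatives. They were lost in a fit without a label set term, at limma adjusted p-values of 0.537 for Tkt and 0.0758 for Taldo1. That fit sets the indomethacin arrays of set b against the NS-398 arrays of both sets, so it is not a comparison within set b. The differences of Pgd (-0.09, interval -0.23 to 0.05), Me1 (-0.15, -0.38 to 0.08) and Idh1 (0.16, -0.01 to 0.32) did not pass, with limma adjusted p-values of 0.47, 0.438 and 0.231.

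**Figure D2:**
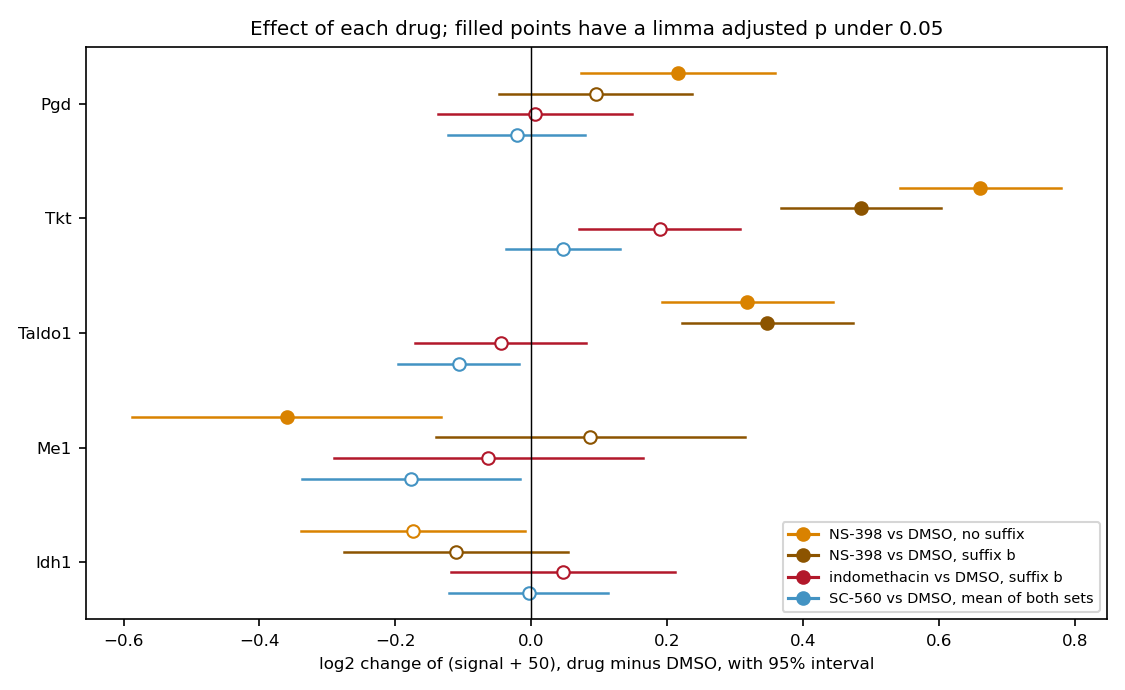
Log2 change of (signal + 50), drug minus DMSO, with its 95% interval for each of the 5 enzyme genes; colours give the drug and label set, and filled points have a limma adjusted p under 0.05. Tkt and Taldo1 are filled for NS-398 in both sets, at 0.66 and 0.48 and at 0.32 and 0.35, and no point of indomethacin or SC-560 is filled.

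SC-560 was used at 1 µM, not 100 µM, so its values stand beside those of the other drugs without a comparison. None of the 5 genes was called in limma over both sets, where 0.0914% of probe sets were (0.0685% higher and 0.0228% lower) and 1768 had an unadjusted p under 0.05. Of the 5, Taldo1 and Me1 had an unadjusted p under 0.05. Taldo1 had 3167 and 2980 under SC-560, against 3226 and 3299 under DMSO, without the suffix, and 2854 and 2827 under SC-560, against 3072 and 3148 under DMSO, in set b. All SC-560 arrays were below the DMSO arrays of their set, at a mean log2 change of -0.11 ± 0.04 (limma adjusted p 0.396). Tkt had 3843 and 3946 under SC-560, against 3793 and 3659 under DMSO, without the suffix, and 5026 and 4771 under SC-560, against 4692 and 4903 under DMSO, in set b (0.05 ± 0.04, 95% interval -0.04 to 0.13). For Tkt the groups overlapped in set b.

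Pgd had 2071 and 2261 under SC-560, against 2250 and 2087 under DMSO, without the suffix, and 3304 and 3153 under SC-560, against 3212 and 3439 under DMSO, in set b (-0.02 ± 0.05). Idh1 had 3924 and 3826 under SC-560, against 3470 and 3988 under DMSO, without the suffix, and 3931 and 4035 under SC-560, against 4130 and 4214 under DMSO, in set b. Its mean log2 change had a 95% interval from -0.12 to 0.11. Me1 had 676 and 649 under SC-560, against 759 and 799 under DMSO, without the suffix, and 335 and 361 under SC-560, against 389 and 386 under DMSO, in set b (-0.18 ± 0.08, limma adjusted p 0.44). Its second probe set gave 0.05 ± 0.09, so the 2 probe sets differed in sign. Pgd overlapped with DMSO in both sets and Idh1 in the set without the suffix. Within a set, 3 of the 5 genes did not overlap with DMSO without the suffix (33.3% of probe sets) and 3 in set b (43.4%). Without overlap and in the same direction in both sets stood 2 of the 5 genes, Taldo1 and Me1, both below DMSO, as did 9.06% of probe sets in either direction.

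Ordered by mean signal within set b, Tkt stood at 6735 ± 257 under NS-398, 5475 ± 51.1 under indomethacin, 4898 ± 180 under SC-560 and 4798 ± 149 under DMSO (SD, n = 2 each). SC-560 and DMSO, neighbours in this order, differed by less than the spread of their arrays. Taldo1 stood at 3970 ± 94.4 under NS-398, 3014 ± 96.9 under indomethacin, 2841 ± 19.1 under SC-560 and 3110 ± 53.3 under DMSO, so that NS-398 alone lay above DMSO. For Pgd, at 3551 ± 49.1 under NS-398, 3337 ± 127 under indomethacin, 3229 ± 106 under SC-560 and 3325 ± 160 under DMSO, the 3 lower groups overlapped. Idh1 was lowest under NS-398, at 3862 ± 268, with 4320 ± 402 under indomethacin, 3983 ± 73.7 under SC-560 and 4172 ± 59.6 under DMSO, and its NS-398 and SC-560 arrays overlapped.

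The other pentose phosphate genes were taken from a list of 15, of which 10 were tested. Shpk was below the filter, and the others were not analysed here. Over both sets 4 of the 10 rose under NS-398 and none fell, where 10% of probe sets were called higher. The median log2 change of the 10 was 0.16. The 4 were Rpia, Prps2, Pgm1 and Rbks, and of them Rpia alone acts within the pathway itself. Pgls (0.20 ± 0.08, limma adjusted p 0.0906) and H6pd (0.12 ± 0.11, limma adjusted p 0.472) did not pass over both sets. These 2 are named after their values were seen, and Pgls passed in set b (limma adjusted p 0.0253). Rpia, which makes the ribose 5-phosphate that transketolase uses, averaged 2274 ± 3.74 under NS-398 and 1818 ± 98.8 under DMSO without the suffix, and 1616 ± 94.6 under NS-398 and 1242 ± 91.9 under DMSO in set b (0.34 ± 0.06, limma adjusted p 0.000475). Rpia was also the one of the 4 called in each set, at 0.32 and 0.37. Prps2, which turns ribose 5-phosphate into the donor for nucleotide synthesis, rose by 0.21 ± 0.06, with 0.37 without the suffix and 0.05 in set b. Pgm1, a phosphoglucomutase, rose by 0.28 ± 0.07, with 0.06 and 0.49 in the same order. The difference between the sets did not pass for Prps2 or for Pgm1 (limma adjusted p 0.114 and 0.101). Rpe, which like Rpia feeds the non-oxidative arm and is named here after its values were seen, had -0.08 ± 0.16 without the suffix and -0.36 ± 0.16 in set b, and did not pass (mean -0.22 ± 0.12, limma adjusted p 0.207). By set, 2 of the 10 were called higher and none lower without the suffix (6.13% and 5.81% of probe sets). In set b 4 were called higher and 1 lower (7.71% and 6.99%). Under indomethacin and under SC-560 none of the 10 was called in limma (7.1% and 0.0914% of probe sets). Rpia came near the threshold for indomethacin, at 0.27 ± 0.08 (limma adjusted p 0.0502). Its indomethacin arrays, at 1504 and 1507, lay above the DMSO arrays of set b, at 1177 and 1307. The direct difference of Rpia, indomethacin against NS-398 in set b, was -0.10 ± 0.08 and did not pass (limma adjusted p 0.507).

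Among 15 tested genes of other NADPH sources and their cofactors, 1 rose and 1 fell under NS-398 over both sets, a share near that of all probe sets (10% higher and 9.5% lower). By set, 4 were called higher and 1 lower without the suffix (6.13% and 5.81% of probe sets). In set b none was called higher and 2 lower (7.71% and 6.99%). Mthfd2, a mitochondrial enzyme of the folate cycle, averaged 611 ± 8.70 under NS-398 and 310 ± 17.7 under DMSO without the suffix, and 2997 ± 129 under NS-398 and 2438 ± 195 under DMSO in set b. Its mean log2 change was 0.59 ± 0.08 (limma adjusted p 0.000146), with a call in the set without the suffix and none in set b (0.88 and 0.29). Nnt, the mitochondrial transhydrogenase that makes NADPH from NADH, averaged 2538 ± 24.8 under NS-398 and 3522 ± 156 under DMSO without the suffix, and 2371 ± 202 under NS-398 and 3060 ± 139 under DMSO in set b (-0.41 ± 0.06, limma adjusted p 0.000321). Nnt fell under indomethacin as well, at 2346 ± 32.2 under indomethacin and 3060 ± 139 under DMSO (-0.38 ± 0.09, limma adjusted p 0.0207). It was the single call of the 15 for that drug, a share near the 7.1% of all probe sets called. Both comparisons in set b share the DMSO arrays.

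The mitochondrial relatives of Idh1 and Me1 were not called over both sets, though Idh2 was without the suffix (0.16 ± 0.05, limma adjusted p 0.048). Idh2 had a mean log2 change of 0.09 ± 0.04 under NS-398 (limma adjusted p 0.112). In set b its change was 0.008 ± 0.05 under NS-398 and 0.12 ± 0.05 under indomethacin (limma adjusted p 0.947 and 0.174). Me2 had 0.19 ± 0.10 and Me3 0.01 ± 0.14 under NS-398, with limma adjusted p-values of 0.205 and 0.973. The cytosolic and mitochondrial genes were not tested against each other. In 3 genes of the folate cycle the sign under NS-398 differed between the sets. Mthfd1 was called in opposite directions, at -0.25 ± 0.08 in set b and 0.36 ± 0.08 without the suffix (limma adjusted p 0.0445 and 0.00773). Shmt2 had -0.12 in set b and 0.35 without the suffix, and Mthfd2l -0.31 and 0.35. The differences of -0.60, -0.46 and -0.65 passed (limma adjusted p 0.00464, 0.0109 and 0.0285).

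Of 14 tested enzymes that spend NADPH, 8 rose under NS-398 over both sets and none fell, at a median log2 change of 0.21, where 10% of probe sets were called higher. Without the suffix 6 were called higher and none lower (6.13% and 5.81% of probe sets). In set b 5 were called higher and 1 lower under NS-398 (7.71% and 6.99% of probe sets), and 3 higher and none lower under indomethacin (3.43% and 3.67%). The 1 lower in set b was Sqle, a sterol synthesis enzyme named after its values were seen, at -0.41 ± 0.12 (limma adjusted p 0.0227). Akr1b8, an aldo-keto reductase, rose by 0.92 ± 0.04 under NS-398 and 0.63 ± 0.05 under indomethacin, and Nqo1, a quinone reductase, by 0.53 ± 0.05 and 0.70 ± 0.07. Txnrd1, thioredoxin reductase, rose by 0.47 ± 0.06 under NS-398 (limma adjusted p 4.68e-05) and by less in set b (difference -0.43 ± 0.12, limma adjusted p 0.0447). Por, which passes electrons to cytochromes P450, rose by 0.36 ± 0.10 under indomethacin (limma adjusted p 0.0397). It was also among the 8 called higher for NS-398 over both sets. Its signals without the suffix averaged 682 ± 85.9 under NS-398 and 561 ± 54.9 under DMSO. In set b they averaged 1113 ± 19.6 and 985 ± 46.6, and these groups did not overlap in either set. Under SC-560 none of the 14 was called in limma (0.0914% of probe sets).

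Among 13 tested regulators, 3 rose under NS-398 over both sets, where 10% of probe sets were called higher. Counted by set, 3 were called higher and 0 lower without the suffix (6.13% and 5.81% of probe sets). The counts in set b were 2 higher and 0 lower (7.71% and 6.99%). None was called under indomethacin (3.43% of probe sets higher) or SC-560 (0.0685%). Nfe2l2, the gene of NRF2, averaged 10238 ± 61.4 under NS-398 and 7932 ± 163 under DMSO without the suffix, and 8701 ± 174 under NS-398 and 7242 ± 316 under DMSO in set b (0.32 ± 0.04, limma adjusted p 5.06e-05). The NS-398 arrays had the higher Nfe2l2 signals in both sets, and its change under indomethacin was 0.07 ± 0.06 (limma adjusted p 0.51). Hif1a, of the hypoxia response, rose by 0.31 ± 0.04, more in set b (difference 0.39 ± 0.08, limma adjusted p 0.00762), and Myc by 0.35 ± 0.06. Myc averaged 1262 ± 114 under NS-398 and 847 ± 3.54 under DMSO without the suffix. The set b averages of Myc were 1509 ± 49.1 under NS-398 and 1352 ± 34.7 under DMSO. Its rise was thus the smaller one in set b, though the difference between the sets was not called.

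Of 10 tested glycolytic genes that share intermediates with the pathway, 6 rose under NS-398 and none fell over both sets, where 10% of probe sets were called higher. By set, 2 were called higher and none lower without the suffix (6.13% and 5.81% of probe sets), with a median log2 change of 0.08. In set b 6 were called higher and 1 lower (7.71% and 6.99%), with a median of 0.58. The 1 lower was Pfkfb3, which makes an activator of phosphofructokinase and is named after its values were seen, at -0.66 (limma adjusted p 0.0434). Its signals were low, at 59.7 and 64.3 under NS-398 and 114 and 142 under DMSO in set b. Aldoa, aldolase, had 0.66 in set b and -0.08 without the suffix, and Gpi, which shares fructose 6-phosphate with Tkt and Taldo1, had 0.57 and -0.01 in the same order. The difference between the sets was 0.74 ± 0.06 for Aldoa and 0.58 ± 0.08 for Gpi (limma adjusted p 5e-06 and 0.000773). Tpi1, which shares glyceraldehyde 3-phosphate with them, had 0.58 in set b and 0.55 without the suffix, a difference of 0.03 ± 0.08 (limma adjusted p 0.889). Of the 10, Aldoa alone was called under indomethacin, at 0.22 ± 0.04, where 3.43% of probe sets were called higher and 3.67% lower.

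**Figure D3:**
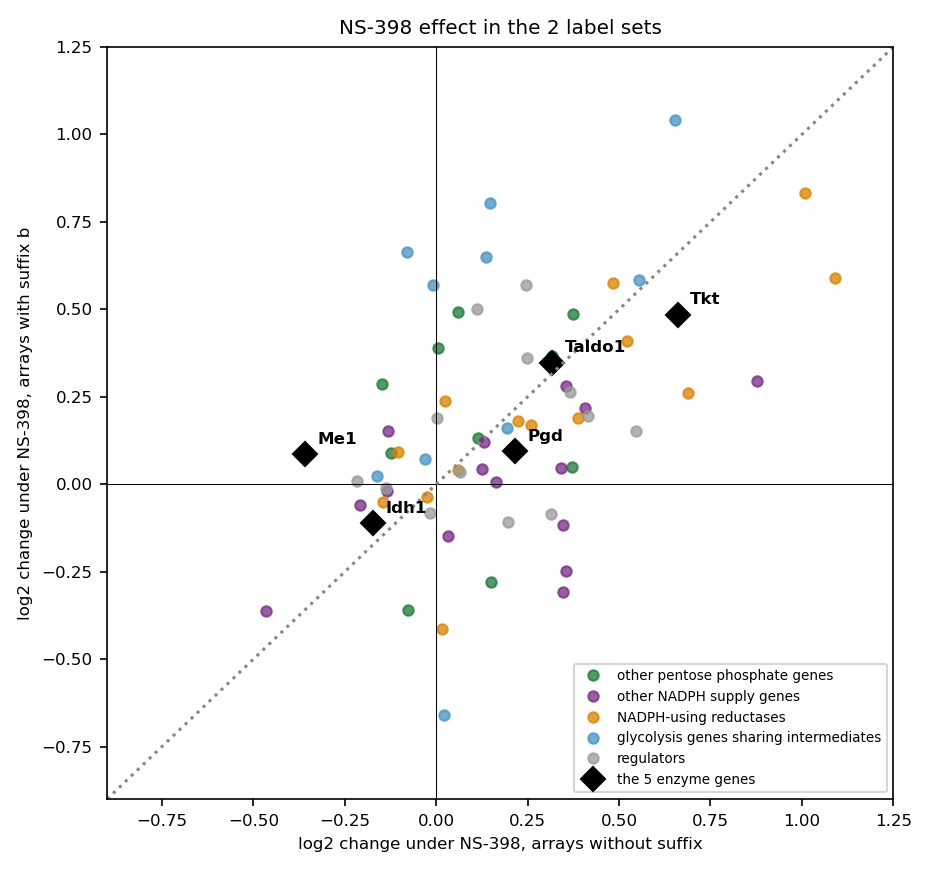
Log2 change of (signal + 50) under NS-398 against DMSO in the arrays without the suffix (horizontal) and with the suffix b (vertical), one point a gene; black diamonds are the 5 enzyme genes, colours the related lists, and the dotted line marks equal change. Taldo1 lies on that line at 0.32 and 0.35, Tkt just below it, and Me1 left of 0 at -0.36 and 0.09.

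**Figure D4:**
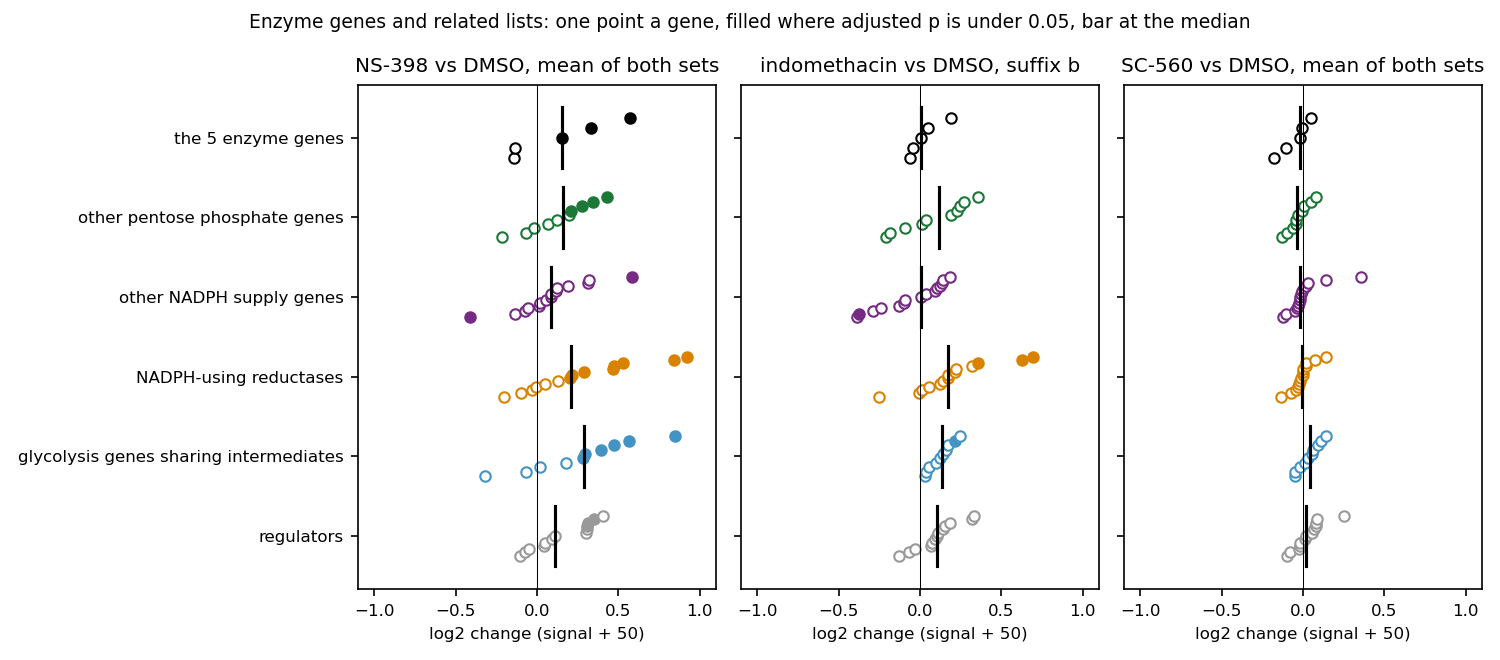
Log2 change of (signal + 50) against DMSO for the 5 enzyme genes and the related lists, under NS-398 (mean of both label sets), indomethacin (set b) and SC-560 (mean of both sets); filled points have a limma adjusted p under 0.05 and bars mark medians. Under NS-398 over both sets, 3 of 5 enzyme genes and 8 of 14 reductases are filled (19.5% of all probe sets were called), under indomethacin in set b alone 0 and 3 (7.1%), and under SC-560 0 and 0 (0.0914%); within set b NS-398 called 2 enzyme genes.

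The pattern of each gene over the 14 arrays was compared with 9777 other named genes, after subtraction of the DMSO mean of the same label set from log2(signal + 50). These correlations share arrays and the DMSO means and are descriptions. Tkt was most like Plekhb2, Abcc4, which exports organic anions, and Ddt, a tautomerase (r = 0.970, 0.969 and 0.969). Taldo1 was most like Btg1, Acyp1 and the glutathione transferase Gsta4 (0.957, 0.951 and 0.951), and Pgd most like Rnf138, Ccdc91 and the iron exporter Slc40a1 (0.939, 0.926 and 0.914). Within the set of 5, Tkt correlated with Taldo1 at 0.886 and with Pgd at 0.873. For Pgd, Tkt ranked 23 among the 9777, and for Taldo1 it ranked 48. For Tkt, Taldo1 ranked 84 and Pgd ranked 99. Pgd and Taldo1 correlated at 0.756, where Taldo1 ranked 238 for Pgd and Pgd ranked 338 for Taldo1. Idh1 ran against all 3, with r of -0.72 for Pgd, -0.64 for Tkt and -0.60 for Taldo1, and was most like Zhx1 (0.865), Sec62 (0.853) and Kdm2a (0.844). Me1 was most like Snf8 (0.909), Lamc1 (0.892) and Rab6a (0.886), and its r with Taldo1 was 0.005.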

How the data were processed

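Pooled RNA of cultures was measured on 14 1-colour Affymetrix arrays after 2 rounds of amplification, per the labels. The authors deposited linear signal intensities for 31099 probe sets, scaled to a target signal of 500, per the labels; the software is not given in the sources used here. Gene names come from GEO's platform annotation, updated by gene identifier to the RefSeq symbols of GRCr8: 20832 had 1 symbol, 436 had several and stay unnamed, 9831 were not listed, 20764 gene identifiers matched. The 57 control probe sets were left out.

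Probe sets with a signal of at least 100 on at least 2 arrays (17515, covering 9840 genes) were fitted as log2(signal + 50) with limma 3.58.1 (R 4.3.3, intensity trend), with 1 mean for each of the 7 combinations of group and label set. Adjusted p-values are Benjamini-Hochberg values over all 17515, called under 0.05. The pseudocount makes fold changes of low signals smaller. Where a gene had several probe sets, the one brightest on average over the arrays stood for it; all member probe sets are given. Within a label set an effect compares 2 arrays with 2, and the number of arrays limits the precision. In simulated data with 200 of 17515 probe sets changed, 46.5% of log2 changes of 0.5 were recovered for NS-398 in set b. The shares were 50% for NS-398 without the suffix, 76% for the mean of both sets and 44% for indomethacin. Many more than 200 probe sets were called in each of these comparisons, so the shares need not hold for the data.

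The members, lists and tests were chosen with earlier results of these data known. The other genes named were called for indomethacin, for NS-398 over both sets or for the difference between sets (per list, those with the 3 smallest adjusted p-values in each direction first), plus Nfe2l2, Idh2, Me2 and Me3, and the 3 genes most like each member. Arrays with the same label deviated from their group and set means with r from -0.08 to 0.06 (9 distinct values, since the deviations of 2 arrays mirror each other), so the labels do not pair them further. Alternatives changed the normalization, pseudocount, filter, model, trend, probe set and arrays used.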

Additional observations from a re-analysis of the deposited data

Results flagged for a closer look

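By the test of the difference itself, the effect of NS-398 differed between the label sets in 10 of 62 related genes tested, where 6.09% of all probe sets were called. The 10 are named because they were called. The log2 differences, set b minus the set without the suffix, were 0.74 for Aldoa, 0.66 for Pfkp, 0.58 for Gpi, 0.43 for Pgm2 and 0.39 for Hif1a. They were -0.65 for Mthfd2l, -0.60 for Mthfd1, -0.46 for Shmt2, -0.43 for Txnrd1 and -0.43 for Prps1.

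In 4 of 87 groups of 4 arrays, 1 array stood far from the others of its group. Each group pools 2 arrays of either label set, and a gene that differs between the sets splits them 2 against 2, so the usual chance rate of about 1 in 20 groups need not hold here. The gap to the nearest array, as a share of the range of the group's log2 values, was 0.882 for Nnt, 0.834 for Mthfd1 and 0.863 for Mthfd2l under NS-398, and 0.868 for Nqo1 under SC-560. None of these groups was of the 5 enzyme genes.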

How the results depend on the processing

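The calls of Tkt and Taldo1 under NS-398 held in each label set and over both under every alternative run. The count of enzyme genes called for NS-398 without the suffix was 4, and 2 with no filter on low signals and with the replicate block. In that set Pgd held its call in 5 of 14 alternatives and Me1 in 7, so the count was below 4 in others too. For indomethacin against DMSO it was 0, and 1 (Tkt) with arrays centred on their median and with a signal of at least 200 on at least 4 arrays. For indomethacin against NS-398 it was 2, and 0 without a label set term, a fit that also takes in the NS-398 arrays without the suffix. When 1 array was left out, the counts were 2 to 2 without the suffix, 2 to 4 for NS-398 over both sets, 2 to 2 for NS-398 in set b, 2 to 2 for indomethacin against NS-398, and 0 to 0 for indomethacin, SC-560 and the difference between sets. No other count of called genes moved with the replicate block.

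Signs turned in uncalled changes near 0. For indomethacin against DMSO, leaving out 1 array moved Pgd between -0.043 and 0.054, Idh1 between -0.047 and 0.141 and Me1 between -0.192 and 0.065, and the second Me1 probe set gave 0.20. The difference between sets moved between -0.0076 and 0.067 for Taldo1 and between -0.037 and 0.161 for Idh1. For SC-560 the ranges were -0.053 to 0.0094 for Pgd and -0.054 to 0.045 for Idh1. SC-560 also gave 0.0039 for Idh1 after quantile normalization and 0.051 for the second Me1 probe set. Pgd was 0.15 for indomethacin against NS-398 without a label set term. That fit sets indomethacin arrays of set b against NS-398 arrays of both sets, and under DMSO Pgd had a ratio of 1.53 between set b and the other set. The cause of these turns of sign was not tested.

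Over all probe sets, the calls for indomethacin against DMSO were 1243, and 778 with no filter, 566 with no intensity trend, 572 with an additive label set term and 2 without one. For NS-398 without the suffix they were 2091 and 1393 with no trend, for the mean of both sets 3420 and 111 without a label set term, for the difference between sets 1066, with 699 unfiltered and 512 with no trend, and for indomethacin against NS-398 1749, with 1057, 954 and 15 under no trend, the additive term and none. Leaving out 1 array gave 305 to 773 for indomethacin against DMSO, 833 to 1113 for NS-398 without the suffix, 1151 to 1758 for NS-398 in set b (2574 with all arrays), 504 to 860 for the difference and 789 to 1010 for indomethacin against NS-398. SC-560 had 16 calls, 0 to 17 under other settings with all arrays, and 0 to 105 without 1 array, the highest without SC-560 array 1.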
